A study of Drosophila melanogaster with 10 samples.

Results

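Col4a1, vkg, LanA, LanB1, LanB2, Ppn, Pxn, SPARC and Hml are 9 genes for extracellular matrix and clotting proteins that Drosophila hemocytes, the blood cells of the fly, secrete. They were taken by symbol from the RefSeq gene table of Release 6 of the genome (dm6), and all 9 were found among the 13922 protein-coding genes on chromosome arms 2L, 2R, 3L, 3R, X and 4. The values are ATAC-seq summits. ATAC-seq cuts accessible DNA with the Tn5 transposase, and a summit is the point of locally highest signal in a peak, so that 1 peak can carry several summits.

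The cells were S2, an established embryo-derived line with macrophage-like properties that is used as a hemocyte model. The 10 libraries came from cells given double-stranded RNA against LACZ (the control), GAF (the GAGA factor), BAP170 (found only in the PBAP remodeling complex), NURF301 (found only in NURF), or NURF301 and BAP170 together, with 2 libraries each. All of these cells received 10 µg/mL of RNA at the start and again after 2.5 days, and flasks were pooled at harvest after 5 days. The submitters called peaks once on all libraries together and listed 39806 summits, each with a score that is −log10 of its q value. A single pooled list has no replicates and no values per condition, so that knockdowns could not be compared, no error can be attached to a score, and no test was made. A site open in few cells and a site weakly open in many cannot be told apart either.

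Basement membranes are sheets of extracellular matrix under epithelia and around muscle and fat. Their network is built from collagen IV, here a trimer of chains encoded by Col4a1 and vkg (viking), and from laminin, a trimer with an alpha chain (LanA), a beta chain (LanB1) and a gamma chain (LanB2). In the fly, hemocytes and the fat body supply most of this material to other tissues. The other members act around the network or in the blood. Ppn encodes papilin, a large matrix glycoprotein. Pxn encodes peroxidasin, a peroxidase that crosslinks collagen IV. SPARC encodes a collagen-binding glycoprotein, and Hml encodes hemolectin, a clotting factor and a widely used hemocyte marker.

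The 9 genes ranged from no summit to 27 summits within the gene and 1000 bp on either side. Together they held 80 summits from 31 peaks, of which 58 lay inside a gene, 15 upstream of it and 7 downstream. Pxn had 27, LanA 16, LanB2 12, SPARC 10, Ppn 7, vkg 4, LanB1 3 and Hml 1, and Col4a1 had 0. Thus 8 of the 9 genes had a summit in this window, against 67.6% of all protein-coding genes, and 7 had one inside the gene, against 48.7%. With so few genes, and with a median length of 13948 bp against 2163 bp for all protein-coding genes, these counts describe the 9 genes and were not tested.

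Scores differed as much as the numbers did. The 80 scores ran from 1.31 at Pxn to 208 at LanA, with a median of 13.8, and 48 of them (60.0%) were below 21.9, the median of the whole list. A score of 100 or more was reached by 12 of the 80 (15.0%), against 19.8% of all summits. The strongest summit per gene was at or above the list median in 7 of the 9 genes, against 57.8% of all protein-coding genes. For vkg and Hml that summit lay in a neighboring gene, and without flanking summits inside other genes the count was 5 of 9, against 51.3% of all protein-coding genes, so that the members were close to the background. Over the 8 genes with a summit the strongest scores had a median of 135, and over the 9413 protein-coding genes with a summit the median was 114. This order depended on the flank: with 500 bp the medians were 106 and 109.7, and with no flank 80.0 and 71.6. The median member is also longer than the median gene, and strongest scores were not compared with genes of like length.

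**Figure D1:**
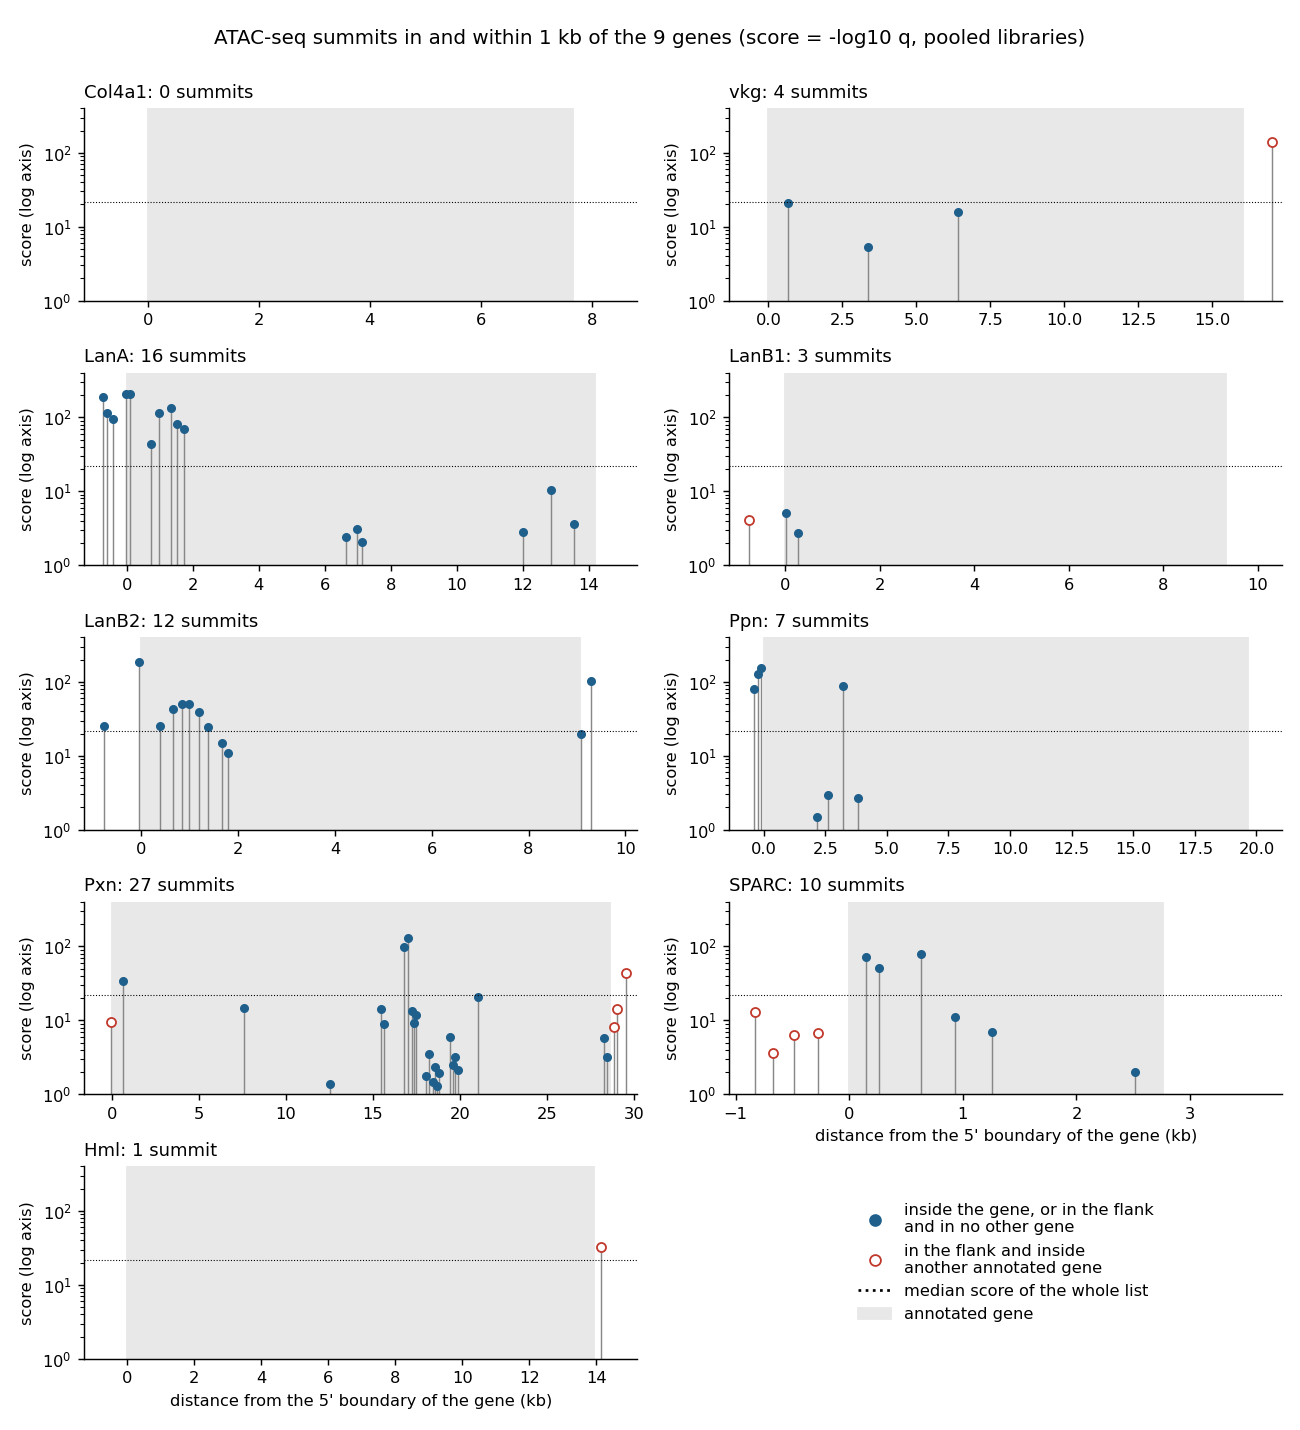
Each panel shows 1 gene, with the distance from its 5′ boundary in kb on the horizontal axis and the score (−log10 q, logarithmic axis) of each summit on the vertical axis. Filled points lie inside the gene or in a flank that is part of no other gene, open points lie in a flank inside another annotated gene, gray marks the gene, and the dotted line is the list median of 21.9. LanA, LanB2, Ppn and SPARC carry their tall summits at the left end, Pxn carries them in the gene body, and Col4a1 has none.

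The high summits were mostly near the 5′ ends. The gene table gives the outer boundaries of a gene but neither its strand nor the starts of its single transcripts, and the direction of transcription was taken from published annotation. Of the 80 summits, 30 lay within 1000 bp of a 5′ boundary and had a median score of 46.4, and the other 50 had a median of 8.52. Of the 12 summits with a score of 100 or more, 8 were within 1000 bp of a 5′ boundary, all at LanA, LanB2 and Ppn. The others were 135 in LanA, 131 in Pxn, and 139.5 and 103 beyond the 3′ ends of vkg and LanB2. Values by distance from the 5′ boundary were not computed over all genes, for which no strand was given. A summit lay within 500 bp of either boundary in 7 genes, against 60.0% of all protein-coding genes, and within 500 bp of the 5′ boundary in 6. The 6 were LanA, LanB1, LanB2, Ppn, Pxn and SPARC, whereas Hml had one only past its 3′ end.

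Of the collagen IV pair, the laminin genes and the other 4 genes, the pair had the lowest density inside, 0.126 summits per kb. Its windows held 4 summits, all at vkg and 1 of them inside the neighbor SelT. Col4a1 runs from 5029609 to 5037279 on chromosome 2L (7671 bp, 3 transcripts), and vkg from 5012144 to 5028191 (16048 bp, 3 transcripts). The genes are transcribed away from each other, so that the stretch between them borders both 5′ ends. Col4a1 had no summit inside it or within 1000 bp. Among the 823 other protein-coding genes within 20% of its length, 141 (17.1%) also had none in this window.

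The gap between the pair, from 5028192 to 5029608 on 2L (1417 bp), also held 0 summits. A summit was present in 37.8% of the 1719 gaps of 1 to 4 kb between protein-coding neighbors, whatever the direction of the genes, so an empty gap of this size was the more common case. The closest summit on the vkg side lay 647 bp from the gap, inside vkg at 5027545, with a score of 21.2. It is 646 bp inside the 5′ boundary of vkg and 2064 bp upstream of that of Col4a1. On the other side no summit was listed before 5043014, 5735 bp past the 3′ end of Col4a1 and inside CG31650. The summit-free stretch between these positions was 15469 bp long and held all of Col4a1 together with CG14042 and SP555, which share 1 pair of boundaries. On 2L, 322 of the 7721 intervals between neighboring summits were longer, and the median interval was 371 bp. These intervals include the short ones within a peak, and intervals that hold a whole gene were not compared separately.

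Within vkg the 3 summits were single-summit peaks with low scores. They were 646, 3368 and 6408 bp from the 5′ boundary, with scores of 21.2, 5.36 and 15.7, all below the list median. The remaining 9639 bp toward the 3′ end had none. The highest summit in the window, with a score of 139.5 at 5011186, lay 958 bp beyond the 3′ end and inside the neighbor SelT. It belongs to a peak of 8 summits that reaches from Rtnl1 across Tfb5 and CG31917 to SelT and whose highest score is 185, and SelT ends 16 bp from vkg. With flanking summits inside other genes left out, the strongest score of vkg was 21.2 in place of 139.5.

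**Figure D2:**
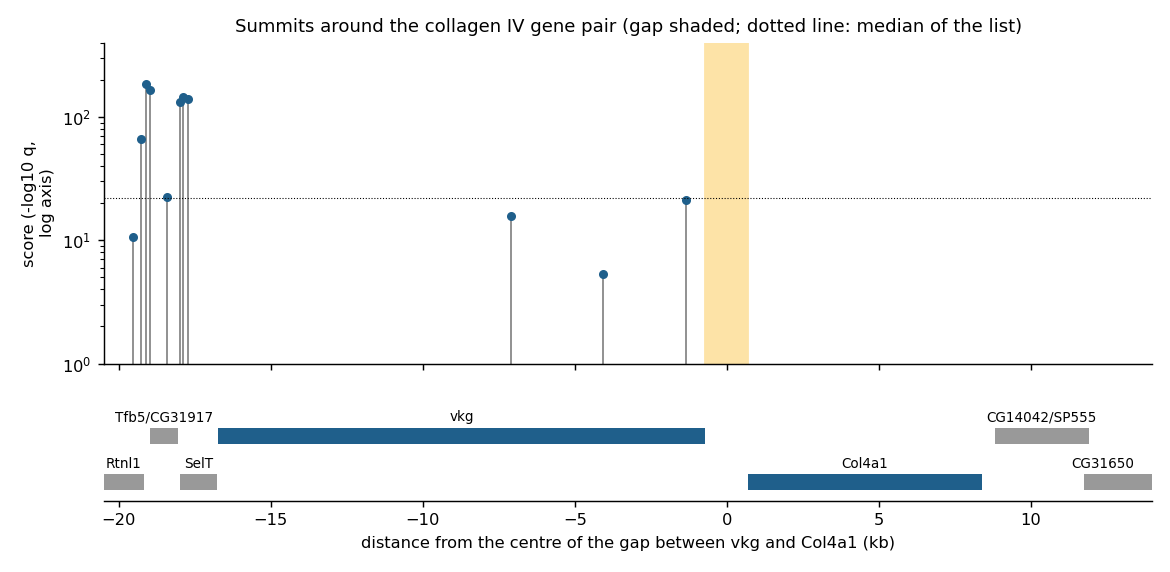
The distance from the center of the gap between vkg and Col4a1 is on the horizontal axis (kb) and the score on the vertical axis (−log10 q, logarithmic), with genes drawn as bars below and the gap shaded. The tall summits stand between Rtnl1 and SelT at the left, 3 low summits lie in vkg, and the gap and Col4a1 hold 0.

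The laminin genes held 31 summits with a median score of 39.5, and the chains of the trimer differed widely. LanA had 16 summits with a strongest score of 208, LanB2 had 12 with a strongest score of 183, and LanB1 had 3 with a strongest score of 5.10. Among protein-coding genes with a summit, 73.4% had a lower strongest score than LanA, 67.8% a lower one than LanB2, and 3.88% a lower one than LanB1.

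LanA lies on chromosome 3L from 6203831 to 6218022 (14192 bp, 1 transcript). Its 5′ end sat in a broad peak of 10 summits that spanned 2452 bp from first to last, and 98.2% of all peaks had fewer summits. The highest pair flanked the 5′ boundary, with 208 at 117 bp inside the gene and 207 at 28 bp upstream. Farther upstream, scores were 94.7 at 412 bp, 113 at 606 bp and 189.8 at 702 bp. Inside the gene they were 43.3 at 726 bp, 116 at 993 bp, 135 at 1340 bp, 80.1 at 1541 bp and 70.5 at 1750 bp. Every summit of this peak was above the list median. The other 6 summits of LanA, between 6640 and 13570 bp from the 5′ boundary, had scores from 2.05 to 10.4, all below it. The neighbor CG8219, 54 bp past the 3′ end, held 9 summits with scores up to 15.5, none within 1000 bp of LanA.

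LanB2, on 3L from 9614914 to 9623980 (9067 bp, 2 transcripts), had a similar layout with 1 dominant summit. That summit lay 53 bp upstream of the 5′ boundary with a score of 183, and it opened a peak of 9 summits spanning 1840 bp. The next 8 summits of the peak, from 380 to 1787 bp inside the gene, first rose from 25.6 to 50.6 at 982 bp and then declined to 10.9. A separate summit of 25.1 lay 777 bp upstream, in the stretch before Tmc. No summit was listed over the following 7287 bp, 80.3% of the length of the gene. Beyond the 3′ end, summits of 19.8 at 8 bp and 103 at 221 bp belonged to the same peak. Both lay in the stretch of 256 bp that separates LanB2 from CG3335.

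LanB1, on 2L from 7811438 to 7820771 (9334 bp, 2 transcripts), had summits at its 5′ end, but their scores were low. The summit 17 bp inside the 5′ boundary had a score of 5.10, which exceeds 22.2% of the list, and the one at 259 bp had 2.71. Another, with 4.12, lay 780 bp upstream and inside Cdc14. From 259 bp onward LanB1 held no summit, and this empty stretch of 15535 bp ran through asRNA:CR45008 and CG7115 to Rack1 and took in 97.2% of LanB1. Thus LanB1 had a summit closer to its 5′ boundary than LanA or LanB2 had, and the lowest strongest score of the 8 genes that had one.

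Ppn, on 3R from 28520665 to 28540324 (19660 bp, 4 transcripts), had 7 summits in a compact arrangement. At its 5′ end 3 summits lay upstream, with scores of 155 at 97 bp, 128 at 217 bp and 81.2 at 386 bp, and no other annotated gene covers them. Another high summit stood inside the gene at 3236 bp, with a score of 89.1. The others, at 2168, 2594 and 3836 bp, were near the floor of the list, with scores of 1.51, 2.92 and 2.71. The other 80.5% of the gene, its 3′ part, held no summit, in an empty stretch of 20977 bp that also took in CG31051.

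Pxn had the most summits and was the only one of the 9 genes with its strongest summit inside the gene and more than 1000 bp from the 5′ boundary. It lies on 3L from 2601455 to 2630064 (28610 bp, 5 transcripts). The summits with scores of 131 and 98.3 were 17018 and 16813 bp from the 5′ boundary and belonged to a peak of 5 summits. Next to it, toward the 3′ end, peaks of 6 and 4 summits between 18032 and 19868 bp had scores from 1.31 to 5.90, so that the cluster combined high and barely listed summits. A single summit at 21016 bp had 20.7, and the pair at 15613 and 15471 bp had 8.88 and 14.3. The 5′ end carried little: 9.50 at 63 bp upstream, inside lncRNA:CR45660, and 34.6 at 673 bp into the gene. Between the 5′ end and the cluster only 14.7 at 7622 bp, inside lncRNA:CR45981, and 1.38 at 12541 bp were listed, and lncRNA:CR45982, which lies within Pxn, held 0. Of its 27 summits, 23 were below the list median. At the 3′ end 5 summits belonged to a peak that extends over CG16986, which overlaps Pxn, with scores from 3.21 to 44.0. The gene table gives no transcript starts, so the position of these summits relative to the 5 transcripts was not tested.

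SPARC, on 3R from 26869238 to 26871995 (2758 bp, 2 transcripts), is the shortest of the genes and the most densely covered, with 2.18 summits per kb inside. A single peak held 9 of its 10 summits over 2088 bp. The scores were 71.7 at 145 bp, 51.1 at 261 bp and 80.0 at 631 bp inside the 5′ boundary, and then 11.1 at 934 bp and 6.85 at 1257 bp. Upstream, 4 summits of the same peak had scores from 3.59 to 13.0 and lay inside Rb97D, whose nearer boundary is 133 bp away. Near the 3′ end a summit of 1.99 was listed, 244 bp inside the gene, and His2Av stands 17 bp beyond that end.

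Hml, on 3L from 13846054 to 13860001 (13948 bp, 2 transcripts), had no summit inside it and none within 1000 bp of its 5′ boundary. Its single summit, with a score of 33.1, lay 186 bp past the 3′ end and inside CG8745, which begins after a gap of 25 bp. That summit closed a stretch of 346963 bp without any other, from 13513224 to 13860187, which held 13 annotated genes whole, among them Hml, Tsp68C, bru3 and Liprin-beta. Of the 8655 intervals between summits on 3L, those within a peak included, only 4 were longer, and these started at 24537376 or beyond. Because 0 peak numbers are absent from the list, the peaks at the ends of the stretch carry consecutive numbers, 8164 and 8165. The numbering does not show whether reads could be placed in the stretch, which was not tested.

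**Figure D3:**
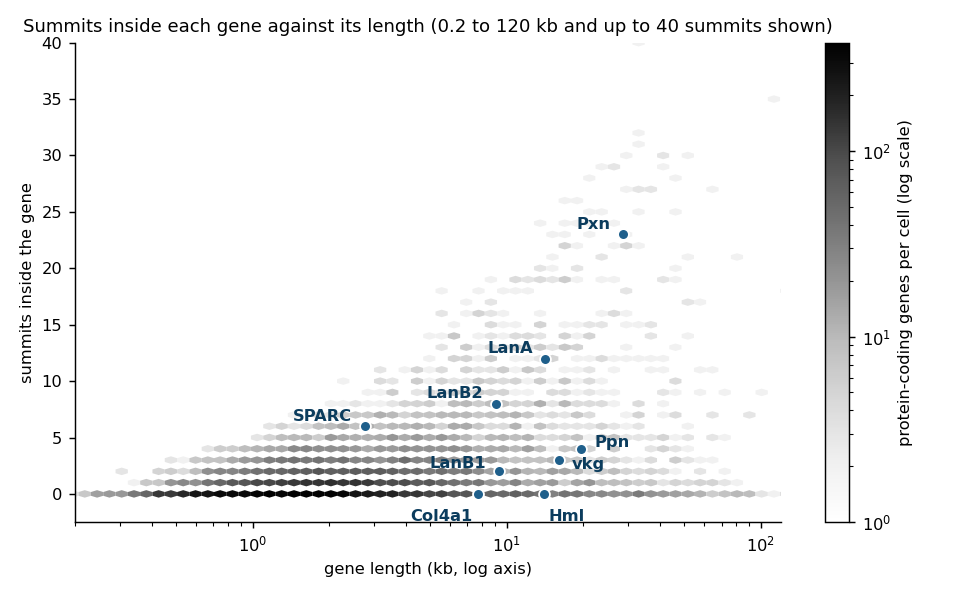
Gene length is on the horizontal axis (kb, logarithmic) and the number of summits inside the gene on the vertical axis. Gray cells count protein-coding genes on a logarithmic scale, and blue points are the 9 genes. Pxn (23 summits), LanA (12) and SPARC (6) lie high for their length, and Col4a1 and Hml lie at 0.

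Each gene was also compared with all other protein-coding genes within 20% of its own length. SPARC had 6 summits inside, more than 95.6% of 1928 such genes. Pxn, with 23, had more than 86.6% of 329 genes, LanA, with 12, more than 81.5% of 530, and LanB2, with 8, more than 78.3% of 696. Ppn, vkg and LanB1 were near the middle, with more summits than 49.1%, 46.6% and 43.9% of the genes of like length. Col4a1 and Hml had none inside, as did 29.8% and 29.2% of the genes of like length. Per kb of gene, the collagen IV pair had 0.126 summits, the laminin genes 0.675 and the other 4 genes 0.508, against 0.335 over all protein-coding genes pooled.

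**Figure D4:**
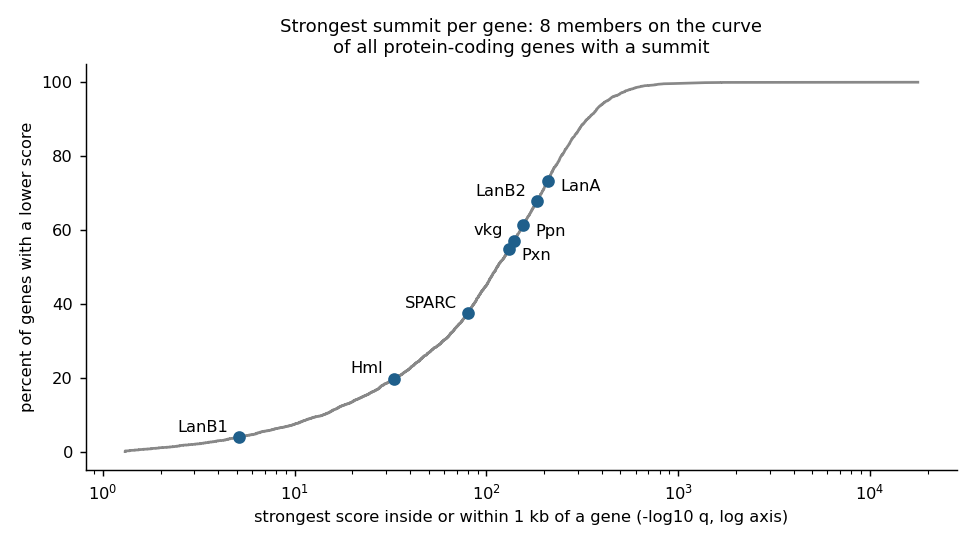
The strongest score inside or within 1 kb of a gene is on the horizontal axis (−log10 q, logarithmic), and the share of the 9413 protein-coding genes with a summit that have a lower score is on the vertical axis. The gray curve is all these genes and the blue points are the 8 genes with a summit, from LanB1 at 3.88% to LanA at 73.4%. Col4a1 has no point.

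In order of strongest score the genes were LanA (208), LanB2 (183), Ppn (155), vkg (139.5), Pxn (131), SPARC (80.0), Hml (33.1) and LanB1 (5.10). No error is known for these scores, so neighbors in this order cannot be called different. The values of vkg and Hml came from summits inside SelT and CG8745.

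Of the 31 peaks at the members, 17 had 1 summit, against 42.5% of all 15615 peaks, so multi-summit peaks were not more common here. The peaks at LanA (10 summits), LanB2 (9) and SPARC (9) had more summits than at least 97.4% of all peaks. Within a peak, neighboring summits of the 9 genes were 96 to 642 bp apart, with a median of 199 bp over 49 distances, and the median over the whole list was 207 bp. The summits of the broad peaks at LanA, LanB2 and SPARC reached 1257 to 1787 bp into the gene. Those of the 5′ peak of Ppn all lay upstream, the nearest at 97 bp. The list gives summit positions and no peak ends, so how far each peak itself reached is not known.

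Other genes of matrix biology gave a wider frame, and 20 of 23 had a summit in the window, with a median strongest score of 166, against 67.6% and 114 for all protein-coding genes. With no flank, 15 of 23 had one, against 48.7%. Some of these genes are long, such as trol (74968 bp) and Mmp2 (72720 bp), against a median of 2163 bp for all protein-coding genes, and the difference was not tested. The single lists are short, and shares such as 5 of 7 are close to the 67.6%. Among other matrix components 5 of 7 had a summit in the window. The strongest belonged to trol, which encodes perlecan (725), and to Tsp, which encodes thrombospondin (616), both in a flank that is part of no other gene. None was listed at Ndg (nidogen) and Mp (multiplexin). All 8 receptor genes had a summit in the window, and 6 had one inside the gene. The highest were Itgbn, an integrin beta chain, at 324 from a summit inside CG42238, and Dg, which encodes dystroglycan, at 316. For the genes mys, if and ItgaPS5 the strongest summit lay inside fs(1)h, mRpL22 and Rrp4, in that order, and if had no other summit. For collagen processing and secretion it was 4 of 5. There Tango1, needed to export collagen from the endoplasmic reticulum, had 214 and the prolyl hydroxylase gene PH4alphaEFB had 200.3, while Loxl2, a lysyl oxidase gene, had none. All 3 genes for matrix proteases and their inhibitor had one, led by Mmp1 at 235 and Mmp2 at 145. The summits of Timp were all in its flanks, the strongest inside Syn. Components of the same matrix thus ranged from no summit at Col4a1, Ndg and Mp to 725 at trol.

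**Figure D5:**
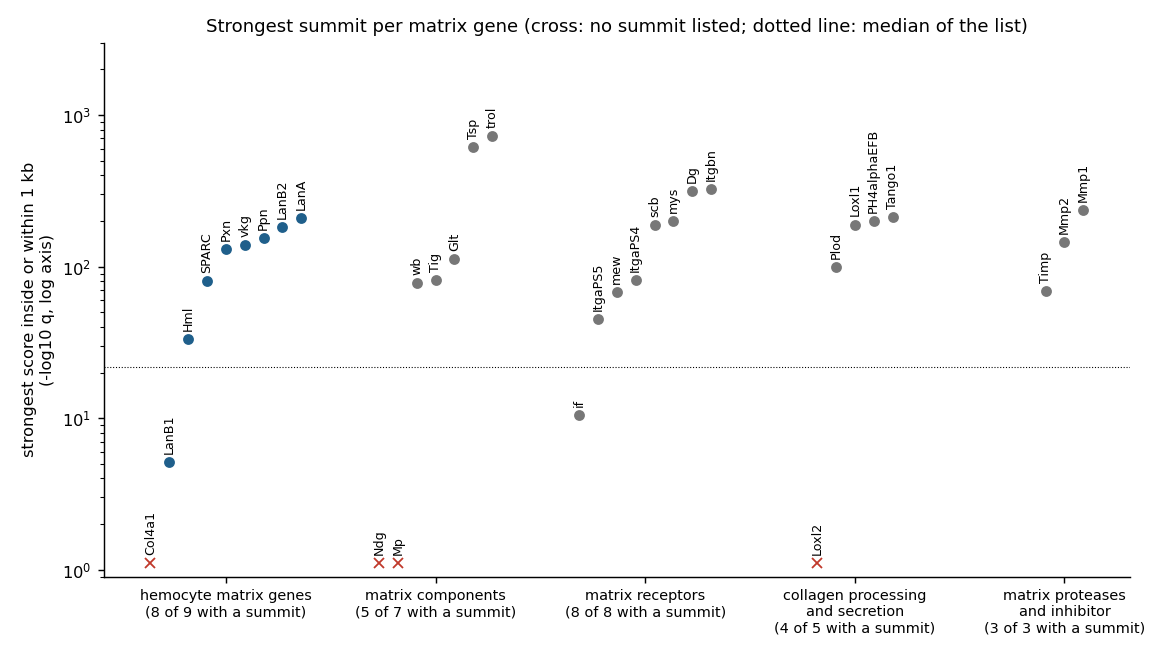
Each point is 1 gene, placed by its list on the horizontal axis and by the strongest score inside or within 1 kb on the vertical axis (−log10 q, logarithmic). Crosses are genes without a summit and the dotted line is the list median of 21.9. LanA, at 208, is the highest of the 9 genes, trol, at 725, is the highest of the others, and Col4a1, Ndg, Mp and Loxl2 have no summit.

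The S2 label was set against blood cell markers. Of 9 hemocyte marker genes, which include Col4a1, vkg, Pxn and Hml, 7 had a summit in the window (6 without flanking summits inside other genes), which is near the 67.6% of all protein-coding genes. The highest were srp, a GATA factor of blood cells (577), and Pvr, a receptor tyrosine kinase (513). The hemocyte markers Col4a1 and NimC1 had none. Markers of other cell types gave 3 of 4 for neurons, 2 of 3 for crystal cells, 2 of 3 for lamellocytes, 2 of 4 for fat body, and 0 of 4 for muscle, with Mhc, Act88F and up among those without. These counts keep flanking summits inside other genes, such as the only one of Lsp2 in the fat body list. By these counts the marker lists did not set hemocytes apart from neurons or from the other blood cell types. By strongest score, srp, Pvr and crq (463) stood above every gene of the other marker lists, where apolpp was highest (279.8). The other hemocyte markers with a summit had strongest scores from 33.1 to 139.5, and the difference in scores was not tested. Accessibility near a gene does not measure its RNA, and expression was not measured in these libraries.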

How the data were processed

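ATAC-seq of 10 S2 libraries was used. The authors deposited 1 list of 1-bp summits, and the deposited score of each is −log10 of its q value (lowest 1.30, highest 80130). The submitters' processing notes name Bowtie2 2.3.5.1, MACS2 2.1.0.20150731, deepTools 3.1.3, DESeq2 1.26.0 and dm6, without roles. The sources used here do not give read filters, a Tn5 shift or depth per library. The score also grows with depth and copy number.

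Summits were counted by position in Python 3.11.15 (pandas 2.3.3, numpy 2.4.6, matplotlib 3.10.9), with a flank of 1000 bp and a boundary distance of 500 bp. Counting was checked on simulated data. Strand was taken from published annotation. Gaps were compared whatever the strand, and planned motif counts were not made, since no genome sequence was used. Genes named were all 9 members, their neighbors within 1000 bp, and from each other list the 2 highest and up to 3 without a summit. Other genes that hold or border a described summit or stretch were named after their values were seen. The same holds for mys, if, ItgaPS5, Timp and crq. Members and lists were chosen with earlier results of these data known. Alternatives were other flanks, distances and score minimums, the highest summit per peak, and others added after seeing the data (the 5′ boundary alone, flanks without summits of other genes, and the members' alternatives run over all genes).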

Additional observations from a re-analysis of the deposited data

How the results depend on the processing

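No paired analysis was possible because 1 list pools all libraries, and leaving out a library could not be done for the same reason. Of 26 alternatives, 17 left a value the same or within 1.5 times for a count, and 9 moved it. The number of summits at the 9 genes, 80, was 29 with the highest summit of each peak, 46 with a score of 10 or more, and 32 with a score at or above the list median. The median strongest score, 135, was 106 with the highest summit of each peak or a flank of 500 bp, 139.5 with either score minimum, 80.0 with no flank, and 131 without flanking summits inside another gene. The gap between vkg and Col4a1 held 0 summits under each of the 3 alternatives run on it. With a score of 10 or more, or at or above the list median, LanB1 had 0 summits left. With no flank, Hml had 0 and the strongest score of LanB2 was 50.6. An unlisted site is one that did not pass a q value of 0.05 in the pooled reads, and depth limits what could be listed.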

Other observations

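Markers of other cell types were mixed. Of 3 crystal cell genes, 2 had a summit in the window, lz (63.4), a Runx factor, and PPO2 (32.5, inside CG13743), a prophenoloxidase gene, and PPO1 had none. Of 3 lamellocyte genes, PPO3 had a summit of 200.4 inside l(2)k09913 and ItgaPS4, an integrin alpha chain, one of 81.0 inside the gene, and atilla had none. Of 4 fat body genes, apolpp, which encodes a lipoprotein, had 279.8 from a summit inside Zyx. Lsp2, a larval storage protein gene, had only a summit of 2.42 inside DEF8, and Lsp1alpha and Fbp1 had none. Of 4 neuronal genes, 3 had a summit, with brp, an active zone gene, at 223 and elav, an RNA-binding protein gene, at 102 (a summit that also lies in arg), and nSyb had none.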
